A study of Mus musculus with 16 samples.

Results

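The genes of the mitochondrial genome were taken as all genes whose symbol starts with mt-. There were 37 of them among the 55404 genes of the table, 13 that encode proteins, 2 that encode ribosomal RNAs (rRNAs) and 22 that encode transfer RNAs (tRNAs). Whole brains of 8 Tecpr2 ki/ki mice and 8 wt/wt mice were compared, 1 library per mouse, all males aged 5 months. The ki/ki mice were homozygous for the Tecpr2 L1152fs knock-in, a frameshift made by CRISPR/Cas9 in C57BL/6J zygotes, so that every cell of the brain carried it. The wt/wt mice carried no edited allele, and no mouse was treated. RNA was sequenced as stranded total RNA after removal of rRNA with Ribo-Zero plus. The values below are linear normalised values per gene and mouse, rounded to whole numbers, as the authors deposited them.

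The mitochondrial genome is a small circular DNA whose strands are both read as long precursor RNAs. The tRNAs lie between most of the other genes and are cut out of the precursors, which releases the mRNAs and rRNAs. The proteins are core subunits of the respiratory chain and of ATP synthase, which neurons depend on heavily for energy, and the enzymes that copy, transcribe and process this genome are encoded in the nucleus.

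The normalised values of a mouse summed to between 11964284 and 12252324, sums that the normalisation brings close together and that are not the depth. The sequencing depth estimated from the steps of the rounded values was 9.23 to 15.4 megareads on genes, of which 0.3005 to 0.5016 megareads lay on the 37 genes. Tecpr2 itself was lower in ki/ki mice, with 274 to 320 against 928 to 1002 in wt/wt mice (log2 fold change -1.68, SE 0.04, limma adjusted p = 2.16e-47). Of 50 marker genes of brain and neighbouring cell types, 46 were tested and 3 had an adjusted p under 0.1 with limma. Aqp4 and Slc1a2, both of astrocytes, rose by 0.14 and 0.06 on the log2 scale, and Gad1, which makes GABA in inhibitory neurons, fell by 0.09 on that scale. The neuronal markers summed to 45005 to 48061 in ki/ki and 45428 to 49803 in wt/wt mice, and the astrocyte markers to 61241 to 63588 and 58263 to 61654. Slc1a2, with means of 45610 in ki/ki and 43648 in wt/wt mice, made up most of the astrocyte sum. By log2 fold change, 5 of 6 astrocyte markers were above 0 and 1 below, and 2 of 7 neuronal markers were above 0 and 5 below. The markers of pituitary, a tissue at the edge of the dissection, were near 0, with 3 of 5 listed at 0 in all mice. In bulk tissue, fewer cells of a type and less RNA per cell cannot be told apart, and the part of these markers in the results below was not tested.

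The tRNAs with the highest values are printed first, because 4 of the 5 are annotated on the minus strand, where few genes lie. Each line gives the gene, its position on the mitochondrial chromosome (chromosome M, GRCm38, the build before the GRCm39 used by the authors for alignment) and the sequence from the GENCODE transcripts, 5′ to 3′, with the anticodon in capitals.
mt-Ty (tyrosine), 5260 to 5326, minus strand: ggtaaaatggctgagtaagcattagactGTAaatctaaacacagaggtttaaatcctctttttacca
mt-Tp (proline), 15356 to 15422, minus strand: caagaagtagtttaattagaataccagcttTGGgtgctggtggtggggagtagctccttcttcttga
mt-Tm (methionine), 3845 to 3913, plus strand: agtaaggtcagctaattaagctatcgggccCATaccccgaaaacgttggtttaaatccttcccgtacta
mt-Tc (cysteine), 5192 to 5257, minus strand: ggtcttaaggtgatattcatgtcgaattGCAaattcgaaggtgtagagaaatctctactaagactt
mt-Te (glutamate), 14071 to 14139, minus strand: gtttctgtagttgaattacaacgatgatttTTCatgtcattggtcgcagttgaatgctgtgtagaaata

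The next pair is shown because a nuclear pseudogene holds nearly all of mt-Nd3, the mitochondrial gene with the clearest genotype difference. Gm28438, on the minus strand of chromosome 1, matched mt-Nd3 over all 345 of its bases with a single mismatch, T3C, counted from base 1 of mt-Nd3. The mismatched base is in capitals in the first 33 bases of both genes.
mt-Nd3, chrM:9459-9491, plus strand: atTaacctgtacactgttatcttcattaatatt
Gm28438, chr1:24613087-24613119, minus strand: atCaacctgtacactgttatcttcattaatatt

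Neighbouring genes also share bases in places. mt-Atp8 and mt-Atp6, which encode 2 subunits of ATP synthase, overlap by 43 bases, which is 21.1% of mt-Atp8. The overlap, chrM:7927-7969 on the plus strand, is in capitals below, within 83 bases from 7907 to 7989.
mt-Atp8 and mt-Atp6: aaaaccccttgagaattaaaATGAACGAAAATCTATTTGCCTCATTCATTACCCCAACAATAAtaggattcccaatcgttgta
mt-Nd4l and mt-Nd4 share 7 bases, and mt-Nd5 and mt-Nd6 share 14 bases on opposite strands. A read that runs across such a stretch covers bases of both genes.

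The 37 genes held 3.13% to 3.37% of all values in a mouse (median 3.27% over 16 mice). The ki/ki mice had a mean share of 3.24% ± 0.07 (SD, n = 8), and the wt/wt mice of 3.28% ± 0.05 (SD, n = 8). The protein genes made up 93.7% of the mitochondrial value, the rRNAs 6.17% and the tRNAs 0.120%. Levels were compared between genes as the deposited value per kilobase of gene length, with lengths from 59 to 75 bases for tRNAs, 955 and 1582 bases for the rRNAs and 204 to 1824 bases for protein genes.

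The genes of complex IV, the last enzyme of the respiratory chain, stood highest. mt-Co1, its catalytic subunit, had a mean of 84884 per kilobase over 16 mice, mt-Co3 67950 and mt-Co2 52307. These 3 genes together held 59.6% of the value of all protein genes. In mt-Co1 the values of single mice ran from 127008 through a median of 129824 to 134083 in ki/ki and from 128599 through 131662 to 136422 in wt/wt mice, and the genotypes overlapped. mt-Atp6 followed with 35437 per kilobase and mt-Atp8 lay lower at 15840. mt-Cytb, the only mitochondrial gene of complex III, had 24341 per kilobase.

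The 7 genes of complex I, which takes electrons from NADH, spanned from 26408 per kilobase in mt-Nd1 to 3319 in mt-Nd6 and held 25.5% of the protein value. Between these ends lay mt-Nd3 at 22177, mt-Nd4 at 17495, mt-Nd4l at 16823, mt-Nd2 at 11934 and mt-Nd5 at 9863 per kilobase. mt-Nd6 is the protein gene on the minus strand, and it overlaps the end of mt-Nd5, which stood 2.97 times higher per kilobase. The strand setting of the counting is not given in the sources used here, so reads of the plus-strand precursor that cross mt-Nd6 or a minus-strand tRNA cannot be told apart from reads of these genes. Its values were 1425, 1735 and 1944 (lowest, median and highest) in ki/ki and 1615, 1701 and 1818 in wt/wt mice. The lowest and the highest mouse were both ki/ki, so the wt/wt range lay within that of the ki/ki mice. The highest protein gene exceeded the lowest 25.6-fold per kilobase.

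The order of the long genes was nearly the same in every mouse. Of the 14 neighbouring pairs in the order by mean level per kilobase, 10 kept their order in 16 of 16 mice. mt-Rnr1 was above mt-Nd4 in 13 mice, mt-Nd4 above mt-Nd4l in 15, mt-Nd4l above mt-Atp8 in 15 and mt-Rnr2 above mt-Nd6 in 13, so these neighbours were not set apart in each mouse.

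**Figure D1:**
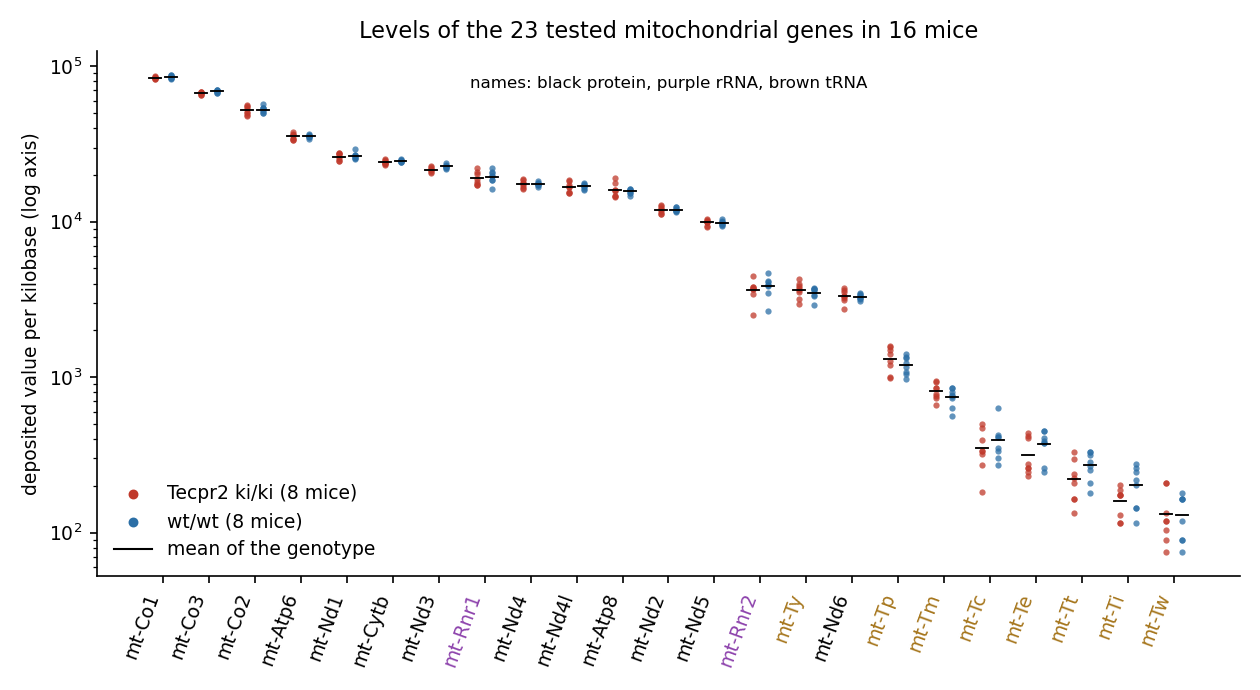
Deposited value per kilobase of gene (log axis) in each mouse for the 23 mitochondrial genes that passed the filter on low values, ordered by mean level, with ki/ki mice in red, wt/wt mice in blue and a black line at each genotype's mean. mt-Co1 stood highest at 84884 per kilobase over all mice and mt-Nd6 lowest among the protein genes at 3319, and the points of the 2 genotypes overlapped in every gene.

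The rRNAs form the core of the mitochondrial ribosome, and their values are those left after rRNA removal with Ribo-Zero plus. mt-Rnr1, the small subunit rRNA, had 19272 per kilobase and mt-Rnr2, the large subunit rRNA, 3738, a ratio of 5.16. The values of mt-Rnr1 were 16481, 17617 and 21009 (lowest, median and highest) in ki/ki and 15547, 18766.5 and 21009 in wt/wt mice. Those of mt-Rnr2 were 3982, 5872 and 7125 in ki/ki and 4189, 6173 and 7360 in wt/wt mice. Both mice numbered 1 had the lowest mt-Rnr2 of their genotype, 3982 and 4189, while the other 14 mice lay between 5437 and 7360. No other of the 15 long genes had both of these mice outside the range of the other 14. Their rRNA sum was 5.503 and 5.405 per 100 of the protein sum, against a median of 6.64 over all mice.

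Most tRNAs were barely represented. Of 22, 8 passed the filter, and 14 did not, with at most 54 summed over 16 mice. Of these, 8 were listed at 0 in all mice. mt-Ty led with values of 199, 246.5 and 287 (lowest, median and highest) in ki/ki and 196, 242.5 and 250 in wt/wt mice, or 3573 per kilobase, close to the level of mt-Rnr2. mt-Tp had a mean of 84.1, mt-Tm 53.9, mt-Tc 24.5 and mt-Te 23.7. The lowest per length of those tested was mt-Tw, the tryptophan tRNA, with 5 to 14 in ki/ki (median 8) and 5 to 12 in wt/wt mice (median 9.5). The genotypes overlapped in both. The authors isolated RNA with the RNeasy Mini kit, sequenced paired ends with reads longer than any tRNA gene and counted with IntersectionNotEmpty. The part of these steps in the tRNA values was not tested, so the values, per kilobase or not, are not taken as tRNA abundance.

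The 8 tRNAs on the minus strand, among them 4 of the 5 printed above, held 79.4% of the tRNA value, and 4 of them passed the filter. mt-Ty alone had a mean of 239, where the means of all 22 tRNAs summed to 473. Of the minus-strand tRNAs that failed the filter, mt-Tq, for glutamine, was listed at 0. mt-Ta, mt-Tn and mt-Ts1 summed to 1, 29 and 35 over 16 mice. On the plus strand the level went with position in the map. The 8 plus-strand tRNAs with a gene of the same strand within 3 bases on both sides summed to at most 1 over 16 mice, and 7 of them were listed at 0. The other 6, which had a gap of at least 69 bases or the end of the map on a side, summed to between 40 and 862, and none was at 0. On the minus strand, wide gaps to genes of that strand went with both low and high sums. mt-Tq (1175 bases and the end of the map) was at 0, mt-Ta (1175) at 1 and mt-Ts1 (1543 and 6613) at 35. mt-Ty (1543) summed to 3830, mt-Tp (1216 and the end of the map) to 1346 and mt-Te (1216) to 379. The grouping by gap was made after the values were seen and was given no test.

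Several protein genes cannot be told apart from copies in the nuclear genome. Every mitochondrial gene was cut into words of 31 bases and looked up in the transcripts of all other genes, of which 23 shared at least 1 word. The shared part was 100% of the words of mt-Co2, 99.9% of mt-Co3, 99.5% of mt-Atp6, 98.9% of mt-Nd4l and 98.1% of mt-Nd3. It was 63.9% in mt-Co1, 62.8% in mt-Nd4, 16.8% in mt-Nd5, 13.5% in mt-Nd2 and at most 10.8% in every other member. mt-Rnr1 and mt-Nd1 shared none, and mt-Rnr2 shared 2.71%.

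The 5 nuclear genes with most shared words were the unprocessed pseudogenes Gm28439 (copy of mt-Nd4), Gm28437 (mt-Co3), Gm13340 (mt-Co1), Gm10925 (mt-Atp6) and Gm28661 (mt-Co2). All but Gm13340 lay within 4663 bases on the minus strand of chromosome 1 (GRCm38, 24611535 to 24616197), which also held Gm28438, Gm10222 (mt-Nd4l) and Gm29216 (part of mt-Co1). Of these 7 genes, 5 matched their mitochondrial gene without a mismatch. Gm28437 had 52618 ± 1075 (SD, n = 8) in ki/ki mice, where mt-Co3 had 52514 ± 1055 (SD, n = 8). The ratio of Gm28437 to mt-Co3 lay between 1.0012 and 1.0032 in single mice, and that of Gm28661 to mt-Co2 had a median of 1.00. Gm10925 was at 1.11 to 1.13 times mt-Atp6. Gm28439 and Gm29216, which cover part of their genes, stood at a median of 0.398 and 0.385 of them. The copies on chromosome 1 together held 1.49% to 1.62% of all values, beside 2.24% to 2.37% in the 7 mitochondrial genes that they match.

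The copies on chromosomes 2 and 13 carried far less. Gm29216 on chromosome 1 also differed from its gene, at 6 of 492 bases, but stood at a median of 0.385 of mt-Co1. Gm13340 on chromosome 2 differed from mt-Co1 at 37 of 1545 bases and had a median ratio of 0.0131, and Gm13341, also on chromosome 2, matched mt-Co2 at 97.6% of bases with a median ratio of 0.0158. Gm4076 on chromosome 13, 95.3% identical to mt-Nd5 over 953 bases, had values of 13 to 29. For mt-Co2, mt-Co3, mt-Atp6, mt-Nd3 and mt-Nd4l, the values of the mitochondrial gene and of its copy therefore came from sequence that is the same or almost the same, and how reads that fit both places were counted is not given in the sources used here.

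**Figure D2:**
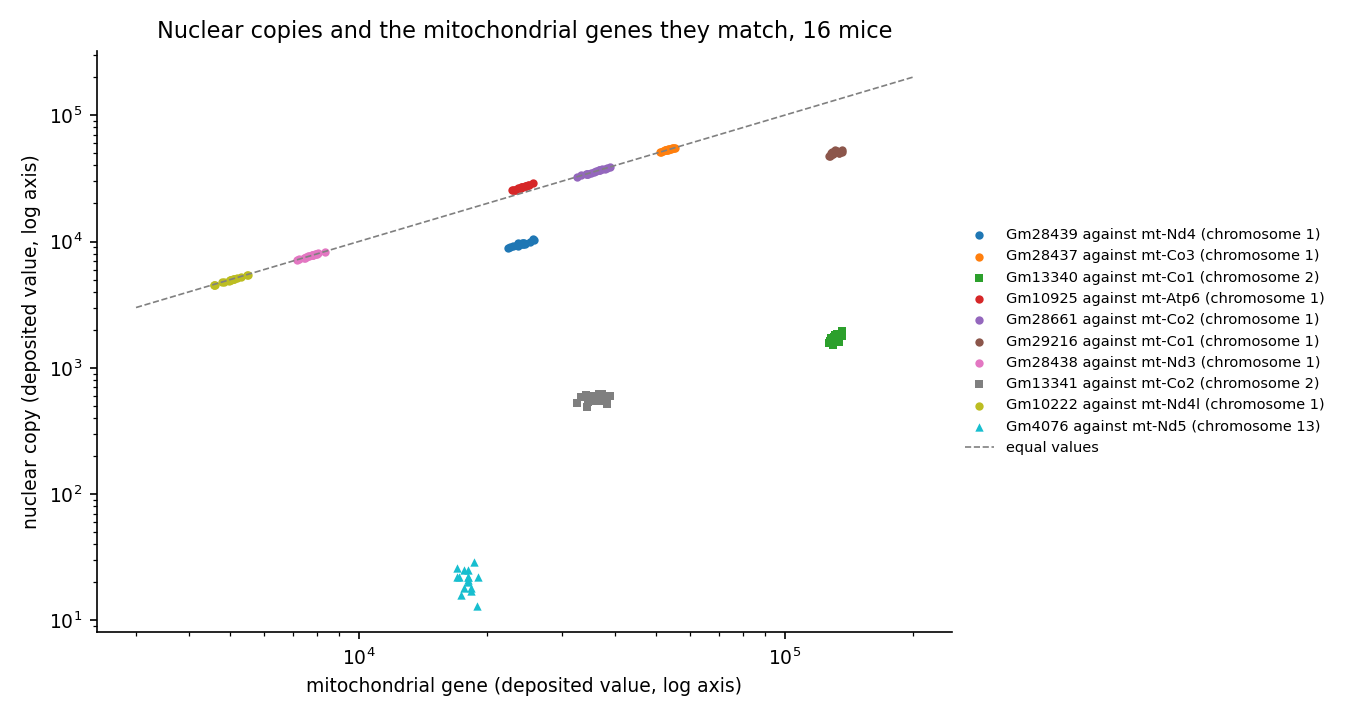
Value of 10 nuclear copies (vertical, log axis) against the mitochondrial gene each matches best (horizontal, log axis), 1 point per mouse, with a dashed line at equal values. Gm28437, Gm28661, Gm28438 and Gm10222 on chromosome 1 lay on the line, Gm10925 just above it, the partial copies Gm28439 and Gm29216 below it, and the copies on chromosomes 2 and 13 far below.

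Whether loss of Tecpr2 changed the RNA of the mitochondrial genome was asked with limma on log2(value + 1) over 23244 genes, 23 of them mitochondrial. None of the 23 had an adjusted p under 0.1, where 0.133% of all tested genes did (31 genes). At an unadjusted p under 0.01 there were 2 of 23, both lower in ki/ki mice, beside 1.56% of all genes in either direction and 0.701% lower in ki/ki. The same 2 were the only ones under 0.05, where 6.08% of all genes lay. In no member were the genotypes separate, as they were in 0.0860% of all genes. The median log2 fold change was -0.02 over the 13 protein genes, -0.05 over the 2 rRNAs and -0.08 over the 8 tRNAs, beside 0.00 (-0.00098) over all genes tested.

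The 2 genes were mt-Nd3, a complex I subunit, and mt-Co3, a complex IV subunit. The values of mt-Nd3 were 7175, 7508 and 7952 (lowest, median and highest) in ki/ki and 7606, 7858.5 and 8327 in wt/wt mice. Of the ki/ki mice, 5 lay under every wt/wt mouse, and 3 wt/wt mice lay over every ki/ki mouse. The log2 fold change was -0.07 (SE 0.02), a change of -4.75%, with an unadjusted p of 0.000245, an adjusted p of 0.135 in limma and an exact two-sided permutation p of 0.00730 for this gene alone. The values of mt-Co3 were 50988, 52735.5 and 53735 in ki/ki and 52494, 54358.5 and 55221 in wt/wt mice. All 8 ki/ki mice were under the wt/wt median, and 4 were under every wt/wt mouse. Its log2 fold change was -0.04 (SE 0.01), a change of -2.81%, with an adjusted p of 0.399 in limma and an exact two-sided permutation p of 0.0132.

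The nuclear copies gave nearly the same figures. Gm28438, the copy of mt-Nd3 printed above, which was named after its values had been seen, had 7194 to 7936 in ki/ki and 7651 to 8302 in wt/wt mice, and its ratio to mt-Nd3 had a median of 1.00. It fell by 0.07 on the log2 scale (SE 0.02) with a limma adjusted p of 0.0681, under the threshold that mt-Nd3 missed. Gm28437, the copy of mt-Co3, fell by 0.04 on that scale with an adjusted p of 0.404. Each gene and its copy are thus not independent measurements. The calls of mt-Nd3 and Gm28438 stood close to the threshold of 0.1. mt-Nd3 came under it without ki/ki mouse 3 (adjusted p 0.00954), ki/ki mouse 4 (0.0926) or wt/wt mouse 7 (0.0507). Every other omission of 1 mouse left mt-Nd3 over it, with adjusted p values up to 0.326. mt-Co3 came under it only without wt/wt mouse 1 (0.0961), and its adjusted p ran up to 0.627 over the 16 omissions. Gm28438 was over it without any 1 of 9 of the 16 mice. Its adjusted p values ran from 0.00536 to 0.223 over all 16 omissions. With eBayes without trend and robust, all 3 were far over it, at 0.807, 0.896 and 0.782.

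The other protein genes differed by less. mt-Cytb had -0.03 (95% interval -0.06 to 0.00), mt-Co1 -0.02, mt-Co2 -0.02, mt-Nd1 -0.02, mt-Nd4l -0.02 and mt-Atp6 -0.01 as log2 fold change. mt-Nd2 and mt-Nd4 had 0.00, mt-Nd5 and mt-Nd6 0.01 and mt-Atp8 0.02. The widest of these intervals were those of mt-Atp8, from -0.09 to 0.14, and mt-Nd6, from -0.10 to 0.13. The complex I genes had a median of 0.00 and those of complex IV a median of -0.02.

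Neither rRNA differed beyond its error. mt-Rnr1 had a log2 fold change of -0.04 (95% interval -0.18 to 0.11) and mt-Rnr2 of -0.07 (-0.33 to 0.18). Among the tRNAs the intervals were wider still. The furthest down were mt-Tt at -0.31 (-0.69 to 0.08), mt-Ti at -0.28 (-0.71 to 0.14), mt-Te at -0.22 and mt-Tc at -0.17, and the furthest up mt-Tm at 0.13 and mt-Tp at 0.12. mt-Ty, the tRNA with the highest values, had 0.06 (-0.07 to 0.18), and the lowest adjusted p of a tRNA in limma was 0.887.

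**Figure D3:**
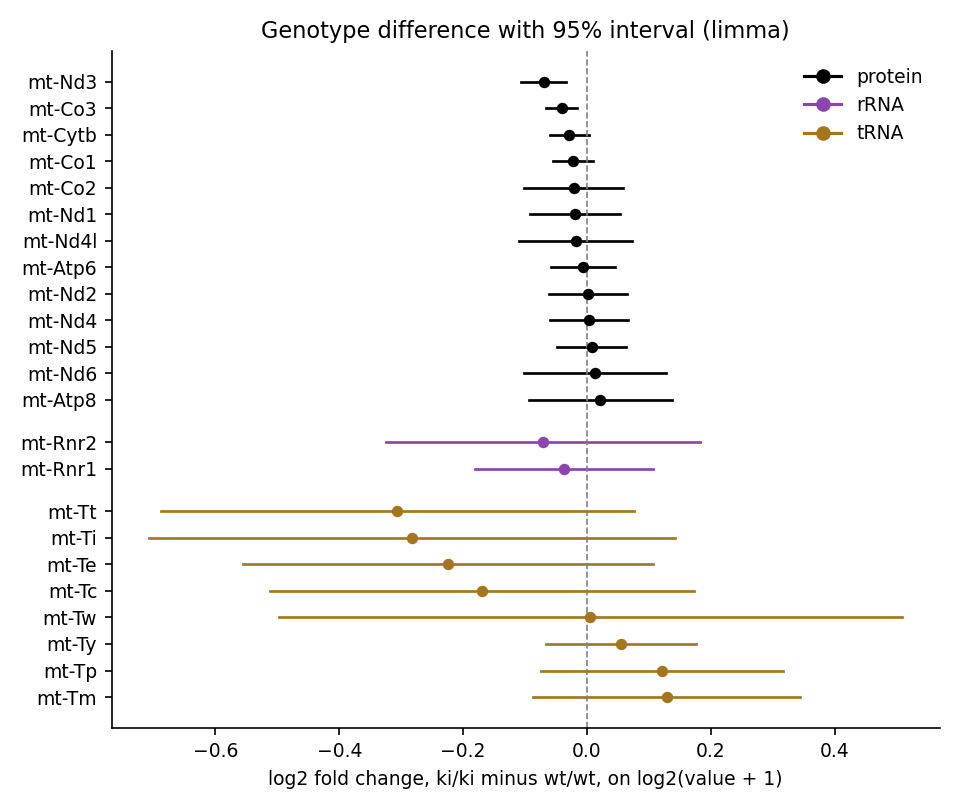
Log2 fold change of ki/ki against wt/wt mice on log2(value + 1) with its 95% interval from limma for the 23 tested genes, protein genes in black, rRNAs in purple and tRNAs in brown. The intervals of mt-Nd3 (-0.11 to -0.03) and mt-Co3 (-0.07 to -0.02) lay below 0, and those of all other genes reached across it.

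The sums by class differed by less than the spread between mice. The protein genes of ki/ki mice summed to 366954 ± 9538 (SD, n = 8) and those of wt/wt mice to 372252 ± 5990 (SD, n = 8), a difference of mean log2 sums of -0.02. The rRNAs summed to 23932 ± 2118 (SD, n = 8) and 24704 ± 2523 (SD, n = 8), a difference of -0.04, and the tRNAs to 479.5 ± 29.5 (SD, n = 8) and 467 ± 22.5 (SD, n = 8), a difference of 0.04. These sums over chosen genes were given no test.

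Spread between mice differed greatly by class. It was taken as the SD of log2(value + 1) within a genotype, pooled over both. The median was 0.06 for protein genes, 0.19 for rRNAs and 0.35 for the 8 tested tRNAs, beside 0.17 for all tested genes. Counting error shrinks with level, so each SD was set against the SD that counting alone would give at the estimated depth. That counting SD was computed without the 1 added to the values, so ratios at low levels come out somewhat too low. The tRNAs had a median ratio to the counting SD of 1.04 (0.865 to 1.59), close to the 1.10 of all tested genes. The ratio was highest in mt-Ty (1.59), mt-Tp (1.48) and mt-Tc (1.33). Of the genes within 1.5 times their means, 91.0%, 88.7% and 83.6% had a smaller SD. For the other tested tRNAs this share was 24.6% to 60.3%. The protein genes were at 2.71 to 9.80 times the counting SD (median 4.59). The ratio was larger in genes of high level: all tested genes with a mean of at least 3000 had a median of 1.82, and a median SD of 0.0381. Both rRNAs stood at 12.6 times (mt-Rnr1) and 12.5 times (mt-Rnr2) the counting SD.

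The rRNAs also varied more than most tested genes of high level. Their values are those left after rRNA removal with Ribo-Zero plus, and the part of that step in this spread was not tested. Of the 606 tested genes with a mean of at least 3000, 2 had a larger SD than the 0.239 of mt-Rnr2, and 8 a larger SD than the 0.135 of mt-Rnr1. Among the 279 genes whose mean lay within 1.5 times that of mt-Rnr2, 99.3% had a smaller SD and the median was 0.0356. Without both mice numbered 1, left out after the data had been seen, the SD was 0.125 in mt-Rnr2 and 0.118 in mt-Rnr1, so that the excess of mt-Rnr2 over mt-Rnr1 rested on these 2 mice.

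Among the protein genes the steadiest were mt-Co3 (0.0282), mt-Co1 (0.0305) and mt-Cytb (0.0349), and the least steady mt-Atp8 and mt-Nd6 (both 0.108), mt-Nd4l (0.0854) and mt-Co2 (0.0750). mt-Co3 ran from 50988 to 55221 over all 16 mice, 1.083 times its lowest value, and mt-Nd6 1.364 times. Among the 1467 genes within 1.5 times the mean of mt-Nd6, 98.4% had a smaller SD, and among the 693 near mt-Atp8 98.1% did. Set against genes of like level in the same way, 8 of the 13 protein genes had a larger SD than most of them and 5 did not. Those 5 were mt-Nd4 (48.1% of 27 genes with a smaller SD), mt-Atp6 (37.0% of 27), mt-Cytb (19.0% of 21), mt-Co3 (12.5% of 8) and mt-Co1 (0 of 4).

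The SD was larger in ki/ki than in wt/wt mice in 12 of 13 protein genes, with a median of 0.0725 against 0.0391. The same held in 52.2% of all tested genes and in 43.9% of those with a mean of at least 3000. In mt-Atp8 it was 0.141 against 0.0593, in mt-Nd6 0.140 against 0.0606 and in mt-Nd4l 0.110 against 0.0494. The exception was mt-Co1. The lowest of all 16 mice was a ki/ki mouse in all 13 protein genes, ki/ki mouse 7 in 8 of them, and the highest was a ki/ki mouse in 6. This difference in spread was not tested, and the genes share libraries and, as shown next, move together.

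**Figure D4:**
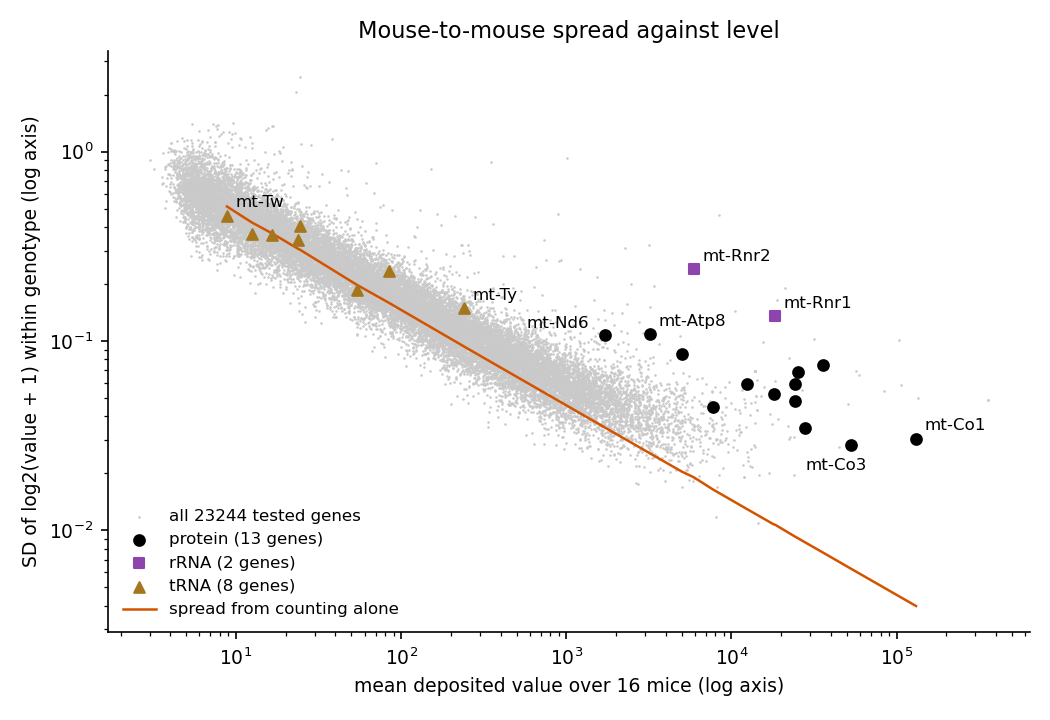
SD of log2(value + 1) within genotype against the mean value over 16 mice (both axes log) for all 23244 tested genes in grey and the mitochondrial genes in black (protein), purple (rRNA) and brown (tRNA), with an orange line for the SD that counting alone would give at the estimated depth. Most tRNAs lay near the line, with mt-Ty, mt-Tp and mt-Tc somewhat above it. The protein genes lay above it and both rRNAs, at 0.135 and 0.239, highest above it.

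Several protein genes rose and fell together from mouse to mouse. After the genotype means were taken off, mt-Nd1, mt-Nd2, mt-Co2, mt-Atp8, mt-Atp6, mt-Nd4l, mt-Nd4 and mt-Nd5 were correlated in all of their 28 pairs, with r from 0.66 to 0.95 (median 0.85) over 16 mice. These 8 were grouped after the values were seen, all values of a mouse share 1 library and its scaling, and the figures are a description. mt-Cytb (median r 0.62) and mt-Nd3 (0.51) went with them less closely, and mt-Co1 (0.06) and mt-Co3 (0.12) hardly. mt-Nd6 had a median r of -0.13 with the 8 and -0.67 with mt-Rnr1.

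For 5 pairs set by class and map position, correlations of log2 values over the 16 mice were tested by permutation with 100000 resamples and adjusted over the 5. The pairs were chosen with earlier results of these data known, so these p values may be too small. mt-Co1 and mt-Co3 went together (Pearson r = 0.72, permutation p = 0.00196, adjusted p = 0.00980, Spearman rho = 0.71, permutation p = 0.00260, adjusted p = 0.0130). Without the 2 mice farthest from the median of mt-Co1, r was 0.58. It was 0.42 within ki/ki and 0.87 within wt/wt mice. mt-Co2, the other mitochondrial subunit of complex IV, was not in these pairs, and its r in deviations from genotype means was 0.23 with mt-Co1 and -0.03 with mt-Co3. mt-Rnr1 and mt-Rnr2 had r = 0.57 (permutation p = 0.0171, adjusted p = 0.0426) and rho = 0.47 (permutation p = 0.0694, adjusted p = 0.173). The r was 0.29 within ki/ki and 0.83 within wt/wt mice, and 0.56 in deviations from the genotype means, with an adjusted permutation p of 0.0518. Without wt/wt mice 1 and 4, the farthest from the median of mt-Rnr1, r was 0.39. Without both mice numbered 1, left out after the data had been seen, r was 0.28 with an adjusted permutation p of 0.545, so the relation of the rRNAs did not hold without these mice.

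The other 3 pairs had no relation past the threshold. mt-Nd1 and mt-Cytb, at the near and far end of the plus-strand precursor, had r = 0.42 (permutation p = 0.104, adjusted p = 0.174) and rho = 0.36 (permutation p = 0.177, adjusted p = 0.295), with r = 0.11 without the farthest 2 mice. mt-Rnr2 and mt-Nd1, of which 1 tRNA lies in between, had r = -0.06 (permutation p = 0.824, adjusted p = 0.914) and rho = -0.11 (permutation p = 0.680, adjusted p = 0.850), with r = -0.02 without the farthest 2 mice. mt-Nd5 and mt-Nd6, overlapping on opposite strands, had r = -0.03 (permutation p = 0.914, adjusted p = 0.914) and rho = 0.01 (permutation p = 0.987, adjusted p = 0.987), with r = 0.00 (0.0028) without the farthest 2 mice. Within ki/ki and wt/wt mice r was 0.49 and 0.25 in the first of these pairs, -0.55 and 0.43 in the second and 0.05 and -0.29 in the third.

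The nuclear genes that serve this genome were tested in the same fit. Of 73 genes for upkeep of mitochondrial DNA, transcription and RNA processing, and aminoacylation, 72 were tested. None had an adjusted p under 0.1 or an unadjusted p under 0.01 in limma, and 3 had an unadjusted p under 0.05, where 6.08% of all genes lay. The median log2 fold change was 0.00 (-0.0026) for the 15 upkeep genes, 0.00 (-0.00061) for the 37 tested genes of transcription and processing and -0.01 for the 20 genes of aminoacylation, 19 tRNA synthetases and Qrsl1, a subunit of the enzyme that turns glutamate into glutamine on its tRNA. Polrmt, the mitochondrial RNA polymerase, had 273 ± 18.9 in ki/ki mice and 278 ± 10.1 in wt/wt mice (SD, n = 8 each). Tfam, which packs the DNA and starts transcription, had 320.5 ± 14.7 and 310 ± 14.2 (SD, n = 8 each). Twnk, the helicase, had 128 ± 10.03 and 122 ± 16.9, Polg, the DNA polymerase, 581.5 ± 28.0 and 576 ± 24.1, and Lrpprc, which steadies mitochondrial mRNAs, 915 ± 44.8 and 914.5 ± 19.2 (SD, n = 8 each). The log2 fold changes of these 5 lay between -0.03 and 0.08, and each 95% interval held 0.

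**Figure D5:**
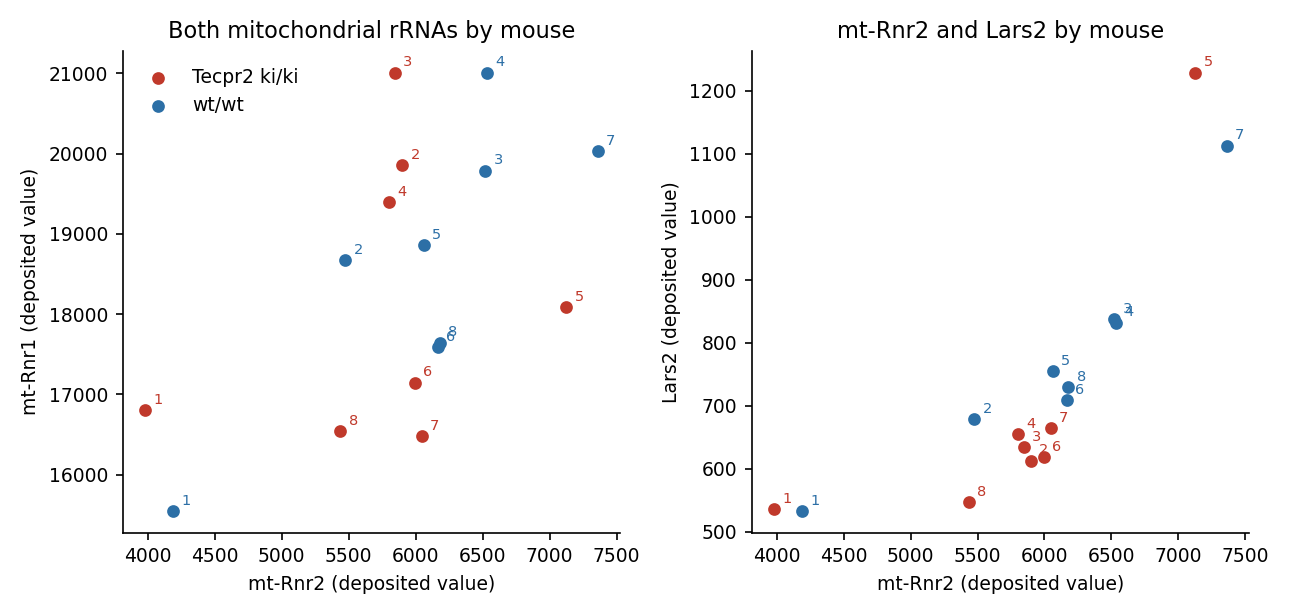
Deposited values of single mice, labelled by their number, with ki/ki mice in red and wt/wt mice in blue, for mt-Rnr1 (left, vertical) and for Lars2 (right, vertical) against mt-Rnr2 (horizontal). Both mice numbered 1 had the lowest mt-Rnr2 (3982 and 4189), and ki/ki mouse 5 and wt/wt mouse 7 had the highest of both mt-Rnr2 and Lars2.

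The figure by mouse sets beside the rRNAs Lars2, the mitochondrial leucyl-tRNA synthetase, which was picked from the synthetase list after its values were seen. Lars2 ran from 536 through a median of 626.5 to 1229 in ki/ki and from 533 through 742.5 to 1113 in wt/wt mice. Its SD of log2 values was 0.341, where those of the other 18 synthetases were 0.0574 to 0.226. Over the 16 mice it followed mt-Rnr2 with r = 0.81 (permutation p = 0.00102) and rho = 0.91 (permutation p = 2e-05), and with r = 0.93 without both mice numbered 1, the farthest from the median of mt-Rnr2. The relation was chosen from the 20 genes of that list, so these p values are too small. Within ki/ki mice r was 0.72 and within wt/wt mice 0.93, and in deviations from genotype means the other 18 synthetases lay between -0.47 and 0.52 and Qrsl1 at -0.65. Lars2 transcripts shared no word of 16 bases with mt-Rnr2 on either strand. Words of nuclear rRNA were not looked for, and the part of rRNA removal in this relation was not tested.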

How the data were processed

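The authors trimmed reads with trim_galore 0.6.10 and cutadapt 3.4, aligned them to GRCm39 with STAR 2.7.10b, counted them with summarizeOverlaps (IntersectionNotEmpty) and tested genes with DESeq2 1.40.2. The strand setting and the handling of reads that fit several places are not given in the sources used here. The deposited values are a score: linear normalised values rounded to whole numbers, by a normalization that is not named, so a count test was not run. Median-of-ratios factors computed from them were 1.0023 to 1.0059. All 16 tables of single mice equalled the table of the series.

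Genotypes were taken from the labels. Genes with a sum over 16 and with 4 or more mice of either genotype above 5 were tested with limma 3.58.1 in R 4.3.3 (log2 of value plus 1, lmFit, eBayes with trend and robust, Benjamini-Hochberg over 23244 genes, threshold 0.1), tested on simulated data. Python 3.11.15, numpy 2.4.6, scipy 1.17.1, pandas 2.3.3, matplotlib 3.10.9 and Biopython served for the rest. Symbols, positions, lengths and sequences came from the GENCODE annotation of GRCm38. The symbol matched 52017 of 55404 genes. Depth was estimated from the whole numbers that rounding skips, and counting error was computed from it. Intervals and counting SDs cover only what they name. The members, gene lists and pairs were chosen with earlier results of these data known. All protein genes and rRNAs were named, and of the tRNAs the 5 with the highest mean and any with an unadjusted p under 0.05, of the nuclear lists 5 set genes and any with an unadjusted p under 0.01, and the 5 nuclear genes sharing most words. Gm28438, Gm10222, Gm29216, Gm13341, Gm4076, Lars2 and the tRNAs furthest up or down were added after their values were seen. Replicates were separate mice. Alternatives were another pseudocount, no filter, 2 rescalings, eBayes without trend and robust, the replicate number as a block, and each mouse left out.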

Additional observations from a re-analysis of the deposited data

Results flagged for a closer look

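Among 64 sets of 8 mice (the 23 tested members, the class sums, the mitochondrial share and 5 nuclear genes, in each genotype), the highest or lowest mouse was set apart from the other 7 by more than Dixon's limit in 2, where chance gives about 1 in 20. In mt-Nd1, wt/wt mouse 4 had 27936, where the next mouse had 25844 and the median of the genotype was 25269. In mt-Tc, wt/wt mouse 6 had 42, where the next had 28 and the median was 25.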

How the results depend on the processing

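The count of members with an adjusted p under 0.1, 0 as reported, stayed 0 under the other pseudocount, no filter, both rescalings and eBayes without trend and robust. It was 0 to 1 with each mouse left out and 1 without both mice numbered 1, an omission chosen after seeing the data. With the replicate number as a block it was 1, mt-Nd3 (limma adjusted p = 0.0106). The numbers were not taken to pair the mice: over 11241 genes the deviations of same-numbered mice correlated by -0.05 to 0.15, 1 of 8 pairs was over 0.1, and 4 of 16 mice correlated best with their own number. The block changed the call of no other member. The count at an unadjusted p under 0.01 was 2 to 3 over the omissions of 1 mouse and 0 with eBayes without trend and robust, where fewer genes passed in all (312 against 362). No member changed sign under either rescaling, which moved the median member by 0.0033 and -0.0002. The direction of some small log2 fold changes turned with 1 mouse left out, all at an adjusted p of at least 0.860. Their ranges were -0.145 to 0.0028 in mt-Rnr2, -0.0123 to 0.0160 in mt-Nd2, -0.0908 to 0.0980 in mt-Tw, -0.0151 to 0.0423 in mt-Atp8, -0.0194 to 0.0034 in mt-Atp6, -0.0109 to 0.0187 in mt-Nd4, -0.0032 to 0.0201 in mt-Nd5 and -0.0119 to 0.0520 in mt-Nd6. Without both mice numbered 1, mt-Nd2 had -0.0147, mt-Tw -0.0457, mt-Atp8 -0.0059, mt-Nd4 -0.0095 and mt-Nd5 -0.0035, and the median SD of the rRNAs was 0.122. The correlation of mt-Nd5 with mt-Nd6 was 0.0156 with equal totals of the other genes. That of mt-Rnr1 with mt-Rnr2 was 0.562 in deviations from genotype means (adjusted permutation p = 0.0518). Without both mice numbered 1 it was 0.284 (adjusted permutation p = 0.545). The causes of these shifts were not tested. The genotype differences of the class sums and of the share kept their sign and moved by less than 1 SD between mice under the alternatives run, but by over 1.5 times with 1 mouse left out. The log2 difference of the protein sum (-0.0209) was -0.0275 to -0.0124, the latter without ki/ki mouse 7. That of the rRNA sum (-0.0438) was -0.0891 without wt/wt mouse 1, -0.0682 without ki/ki mouse 3, -0.0270 without ki/ki mouse 8, -0.0215 without wt/wt mouse 7, -0.0204 without wt/wt mouse 4 and -0.0155 without ki/ki mouse 1. That of the tRNA sum (0.0372) was 0.0180 to 0.0499, with 0.0180 without wt/wt mouse 2, 0.0206 without ki/ki mouse 5 and 0.0226 without ki/ki mouse 7, and that of the share (-0.0412 percentage points) was -0.0545 to -0.0250, the latter without ki/ki mouse 7. The median SD of the protein genes and of the tRNAs stayed within 1.5 times, and no nuclear gene of the lists passed under any alternative. The 14 tRNAs under the filter on low values were not tested, and the part of depth in their low values was not tested.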
